A study of Mus musculus with 32 samples.

Results

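Glucocorticoid-responsive genes are described here in mouse brain after a stroke with reperfusion. The 8 listed genes are Plin4, Fkbp5, Map3k6, Sult1a1, Tsc22d3, Sgk1 and Zbtb16, which glucocorticoids are known to induce, and Nr3c1, which encodes their receptor. They were found by the gene name of each probe, older names included (S3-12 for Plin4, SGK for Sgk1, DSIP1 for Tsc22d3). Of the 8 genes, 7 were found, on 8 of the 25697 probes of the array, which stand for 17877 genes. Tsc22d3 has 2 probes, and Zbtb16 was not analysed here. All 8 probes were detected (detection p under 0.05) on all 32 arrays, so no member was lost or kept through that filter. Nr3c1 did not pass a stricter filter, a detection p under 0.01 on every array.

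Illumina bead arrays measured messenger RNA in 2 tissues of the right hemisphere, cortex and striatum, from male wild-type mice (strain C57/Bl6, on a C57BL/6J background) aged 8 to 10 weeks. In the ischaemia-reperfusion (I/R) groups a suture closed the middle cerebral artery for 2 h and was then withdrawn, and infarct tissue was taken 2 h, 8 h or 24 h later. Sham mice of the same genotype and age had only the anaesthetic and a neck incision, and no time after surgery is labelled for them. Sham and the 3 times in both tissues made 8 groups of 4 arrays. The labels do not say that the 4 came from separate animals, so p-values measure the spread between these samples, which may be partly technical.

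Glucocorticoids are steroid hormones released by the adrenal cortex during stress. In the cytoplasm their receptor is held by Hsp90 and its co-chaperones. With hormone bound it moves to the nucleus, binds DNA mostly at inverted repeats of a hexamer, and raises or lowers transcription nearby. Some of its targets close a feedback loop: FKBP51, the product of Fkbp5, is an Hsp90 co-chaperone that lowers the receptor's affinity for hormone. In brain, receptor targets are known in neurons, astrocytes, oligodendrocytes and the vessel wall, so a tissue extract averages over all of them. In such bulk tissue, fewer cells of a type and less RNA per cell cannot be told apart.

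The proximal promoters of 4 members are shown because the letters of that hexamer are spread unevenly over them. Each window runs from 250 bases before to 50 bases after a transcription start, as given by RefSeq for GRCm38.p6, written 5′ to 3′ along the gene. The motif searched was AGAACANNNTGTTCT (the same on both strands), and its hexamer AGAACA on either strand (TGTTCT on the other), which the longer motif contains. Capitals mark every match.
Sgk1, chr10:21993640-21993939, plus strand: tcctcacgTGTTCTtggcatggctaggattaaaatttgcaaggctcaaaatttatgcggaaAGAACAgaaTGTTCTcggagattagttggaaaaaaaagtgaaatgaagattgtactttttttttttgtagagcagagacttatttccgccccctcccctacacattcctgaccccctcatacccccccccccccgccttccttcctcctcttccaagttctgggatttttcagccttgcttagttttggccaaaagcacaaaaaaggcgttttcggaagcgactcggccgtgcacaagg
Sult1a1, chr7:126676369-126676668, minus strand: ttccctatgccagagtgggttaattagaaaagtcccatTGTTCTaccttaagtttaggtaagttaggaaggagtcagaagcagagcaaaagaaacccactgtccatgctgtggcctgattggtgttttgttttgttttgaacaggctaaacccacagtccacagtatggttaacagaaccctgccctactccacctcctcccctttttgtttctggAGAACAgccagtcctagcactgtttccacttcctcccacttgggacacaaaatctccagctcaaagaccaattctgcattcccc
Plin4, chr17:56109733-56110032, minus strand: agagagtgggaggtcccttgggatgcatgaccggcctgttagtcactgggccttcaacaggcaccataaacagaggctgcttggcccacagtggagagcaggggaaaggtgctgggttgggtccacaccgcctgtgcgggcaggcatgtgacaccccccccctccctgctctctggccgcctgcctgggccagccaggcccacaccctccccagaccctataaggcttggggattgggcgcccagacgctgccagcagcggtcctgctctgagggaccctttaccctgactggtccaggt
Fkbp5, chr17:28486100-28486399, minus strand: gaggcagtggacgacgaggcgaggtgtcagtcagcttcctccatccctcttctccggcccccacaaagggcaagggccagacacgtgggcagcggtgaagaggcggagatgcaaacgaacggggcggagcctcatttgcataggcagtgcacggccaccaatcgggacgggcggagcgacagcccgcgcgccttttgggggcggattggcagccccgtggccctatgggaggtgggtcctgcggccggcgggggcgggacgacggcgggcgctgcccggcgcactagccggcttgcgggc
Sgk1 has 6 windows, and only the window shown holds the whole palindrome, from 189 to 175 bases before its start. Only 3 of the 32851 mouse promoter windows in the table hold it (0.00913%). The Sgk1 window shown holds another hexamer starting 242 bases before its start, and the Sult1a1 window holds hexamers starting 212 and 34 bases before its own. The Plin4 and Fkbp5 windows hold neither motif. Over the 13 windows of the 6 members examined, the hexamer was found in 5 windows, of Sgk1 (3 of 6 windows), Sult1a1 (1 of 1) and Tsc22d3 (1 of 3), and not in the Map3k6, Plin4 or Fkbp5 window. Among all windows 19.0% hold it. These matches describe letters in short windows, and say nothing of binding there or of sites elsewhere.

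As general facts of the arrays, median probe signals lay between 70.0 and 88.7 units on the cortex arrays and between 57.2 and 103.7 on the striatum arrays, 49.8% to 55.2% of probes were detected, and the median number of beads behind a value was 31 to 40. Levels below are background-corrected, quantile-normalized signals on the log2 scale. Groups occupied their own positions on the slides, and the tissues were on different slides, so neither position and group nor slide and tissue can be told apart. Cortical excitatory neuron markers separated the sham tissues (summed normalised signal 8070 to 9660 in cortex, 3570 to 4180 in striatum). Those of striatal projection neurons did not (6090 to 7870 in cortex, 5290 to 11300 in striatum). The haemoglobin gene Hba-a1, a mark of blood, rose from a mean log2 level of 5.74 in sham cortex to 10.23 at 8 h, and from 6.3 in sham striatum to 10.05.

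At 8 h, 4 of the 7 members had risen against sham in each tissue: Plin4, Fkbp5, Map3k6 and Sult1a1. A gene was called where the adjusted p was under 0.05, with limma and Benjamini-Hochberg adjustment over all genes tested. The 4 of 7 called higher compare with 3.69% of the 9567 genes tested in cortex and 1.73% of the 9866 tested in striatum. In the authors' series values the count in striatum was 3, without Map3k6, and 7 genes in all were called there in place of 346. Tsc22d3, Sgk1 and Nr3c1 were not called at 8 h in either tissue. The median log2 change over the 7 members was 0.85 in cortex and 1.05 in striatum, where the medians over all genes tested were -0.01 and 0.01.

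**Figure D1:**
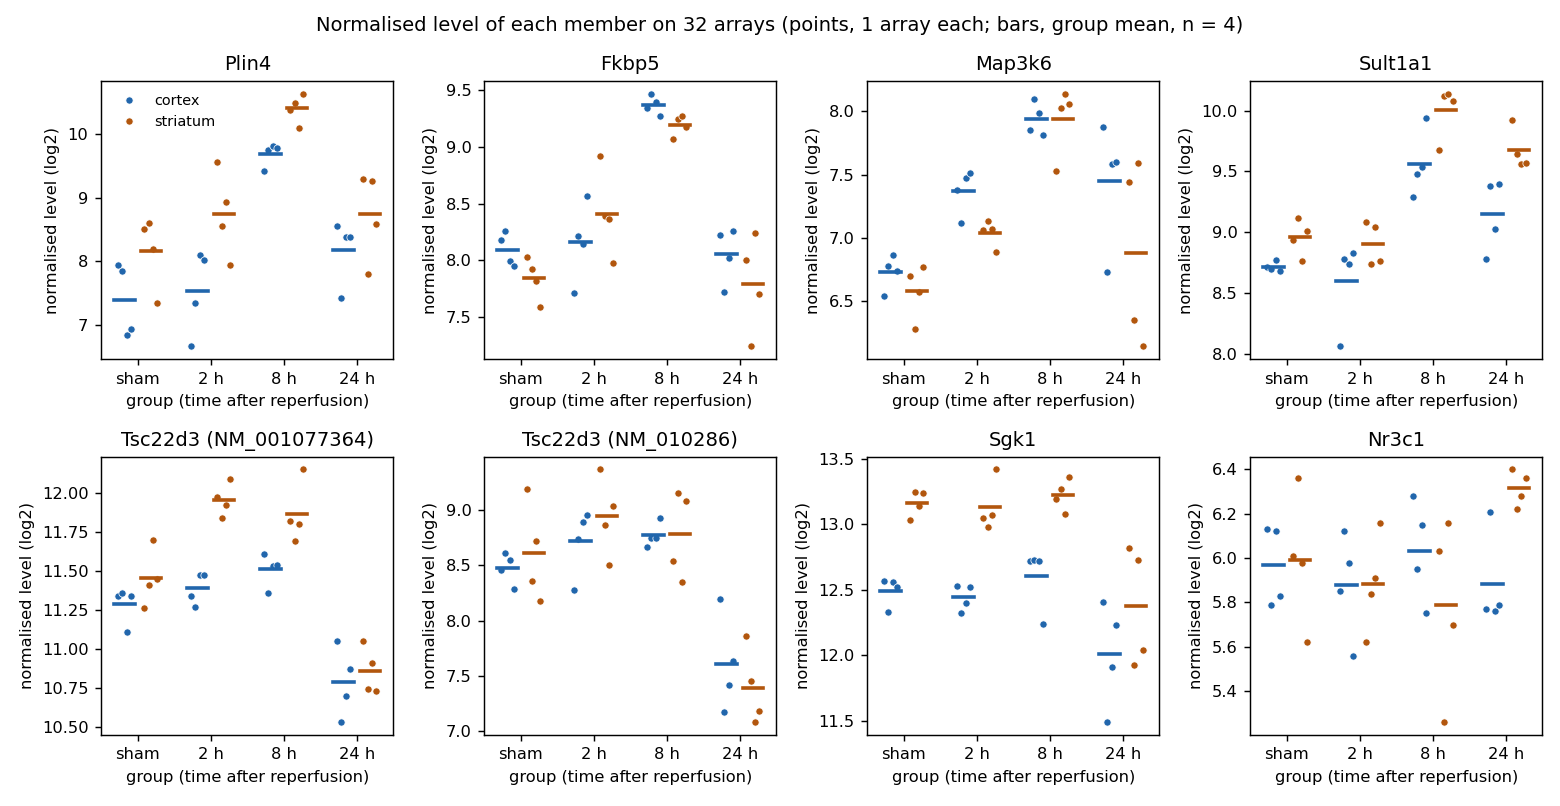
Normalised level (log2 scale) of each member probe by group in cortex and striatum; each point is 1 array and each bar the mean of 4. At 8 h every array lies above every sham array of its tissue for Plin4, Fkbp5, Map3k6 and Sult1a1, and at 24 h every array lies below every sham array for both Tsc22d3 probes. The share of all genes whose arrays separate in this way is not given, here or in the text.

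Plin4 encodes perilipin 4, a coat protein of lipid droplets, and it had the largest 8-h change of the members in both tissues. Its levels in cortex were 7.94, 7.85, 6.84 and 6.94 on the sham arrays and 9.42, 9.75, 9.82 and 9.78 at 8 h (replicates 1 to 4 in each case). In striatum they were 8.51, 8.60, 8.19 and 7.35 in sham and 10.39, 10.50, 10.10 and 10.64 at 8 h. All 8-h arrays of both tissues were thus above all sham arrays of their tissue, and the sham arrays themselves spread over more than a log2 unit. On the deposited signal scale, before any correction, the cortex arrays read 143.4 to 260.6 units in sham and 690.1 to 1024.5 at 8 h. Plin4 rose 4.92-fold in cortex at 8 h (log2 change 2.30 ± 0.31 SE, limma adjusted p = 0.000878, n = 4 per group). In striatum it rose 4.73-fold (2.24 ± 0.34, limma adjusted p = 0.0028). Among all genes tested, its rise was the 17th largest in cortex and the 13th largest in striatum.

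At 2 h and 24 h Plin4 varied between arrays. At 2 h it read 6.66, 7.35, 8.10 and 8.02 in cortex and 9.56, 8.55, 8.93 and 7.94 in striatum. At 24 h it read 8.55, 7.42, 8.38 and 8.39 in cortex and 9.30, 7.80, 9.27 and 8.59 in striatum. Both times overlapped sham in both tissues. The changes at 24 h were 0.79 ± 0.31 in cortex (limma adjusted p = 0.0925) and 0.58 ± 0.34 in striatum (0.25), and neither was called. Without replicate 2 of cortex 24 h, the lowest of its group, the cortex change was called (1.04, limma adjusted p = 0.0154). From 8 h to 24 h Plin4 fell by 1.51 in cortex and by 1.66 in striatum on the log2 scale (limma adjusted p = 0.00891 and 0.00655). In cortex no gene tested had a larger fall between these times.

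Fkbp5, the receptor's feedback gene, was called higher than sham at 8 h and at neither other time. Its cortex levels were 8.18, 8.26, 7.99 and 7.95 in sham, and 9.34, 9.47, 9.40 and 9.27 at 8 h. In striatum they were 8.03, 7.92, 7.82 and 7.59 in sham, and 9.07, 9.25, 9.27 and 9.18 at 8 h. The 8-h arrays lay close together and clear of sham in both tissues. The rise was 2.42-fold in cortex (log2 change 1.28 ± 0.15 SE, limma adjusted p = 0.000332, n = 4 per group) and 2.55-fold in striatum (1.35 ± 0.19, 0.00192). In cortex only 2 genes had a smaller p in this comparison. At 2 h the changes were 0.06 ± 0.15 in cortex and 0.57 ± 0.19 in striatum (limma adjusted p = 0.88 and 0.282). The step from 2 h to 8 h was called in cortex (1.21 ± 0.15, limma adjusted p = 0.00209) and not in striatum (0.78 ± 0.19, 0.065). At 24 h the changes from sham were -0.04 ± 0.15 and -0.05 ± 0.19, with arrays on both sides of the sham mean. The fall from 8 h to 24 h, by 1.32 in cortex and 1.40 in striatum, was called in both (limma adjusted p = 0.000114 and 0.000484).

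Map3k6 encodes ASK2, a kinase upstream of the stress-activated MAP kinases. Its cortex levels were 6.54, 6.78, 6.86 and 6.74 in sham, 7.38, 7.12, 7.47 and 7.51 at 2 h and then 7.85, 8.10, 7.99 and 7.81 at 8 h. Striatum read 6.70, 6.28, 6.57 and 6.77 in sham, 7.06, 7.13, 7.07 and 6.89 at 2 h and then 7.53, 8.03, 8.14 and 8.06 at 8 h. Sham, 2 h and 8 h did not overlap in either tissue, in that ascending order. At 8 h Map3k6 rose 2.31-fold in cortex (log2 change 1.21 ± 0.18 SE, limma adjusted p = 0.00144) and 2.56-fold in striatum (1.36 ± 0.26, 0.012). In the deposited cortex gene table the 8-h change was smaller, at 0.69 (limma adjusted p = 0.00206). With the authors' series values the striatum call at 8 h was lost (1.07, limma adjusted p = 0.0754). The 2-h changes of 0.64 ± 0.18 in cortex (limma adjusted p = 0.0884) and 0.46 ± 0.26 in striatum (0.579) were not called.

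At 24 h Map3k6 split the arrays. Cortex read 7.88, 6.73, 7.58 and 7.60, so that replicate 2 lay within the sham range and the other 3 above it. Striatum read 7.44, 6.35, 7.59 and 6.14, with replicates 1 and 3 above the sham range, replicate 2 within it and replicate 4 below it. In cortex it was called higher than sham (0.72 ± 0.18, limma adjusted p = 0.0155). That call was lost without sham replicate 1 (0.65, adjusted p = 0.052) or 24-h replicate 1 (0.57, 0.057), and in the fit of both groups alone (0.0645). In striatum the change was 0.30 ± 0.26 (limma adjusted p = 0.444).

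Sult1a1 encodes a phenol sulfotransferase, which conjugates small phenols including catecholamines. Cortex levels were 8.71, 8.70, 8.77 and 8.68 in sham, 9.29, 9.48, 9.54 and 9.94 at 8 h and then 8.78, 9.38, 9.03 and 9.40 at 24 h. Striatum levels were 8.94, 9.12, 8.76 and 9.01 in sham, 9.68, 10.12, 10.14 and 10.08 at 8 h and then 9.92, 9.64, 9.56 and 9.57 at 24 h. Every array at 8 h and 24 h was above every sham array of its tissue. At 8 h Sult1a1 rose 1.80-fold in cortex (log2 change 0.85 ± 0.17 SE, limma adjusted p = 0.00861) and 2.06-fold in striatum (1.05 ± 0.13, 0.000498). At 24 h it remained higher in striatum (0.71 ± 0.13, limma adjusted p = 0.00286), while the cortex change of 0.43 ± 0.17 was not called (0.093). The cortex change was called with the replicate number as a block (0.43, limma adjusted p = 0.0274) and with array weights (0.43, 0.0425). The difference between the tissues' 24-h changes, 0.28 ± 0.22, was not called either (limma adjusted p = 0.505). The step from 2 h to 8 h was called in both tissues, at 0.96 ± 0.17 in cortex and 1.10 ± 0.13 in striatum (limma adjusted p = 0.0134 and 0.000737). By p it ranked 1st of all genes in the striatum.

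**Figure D2:**
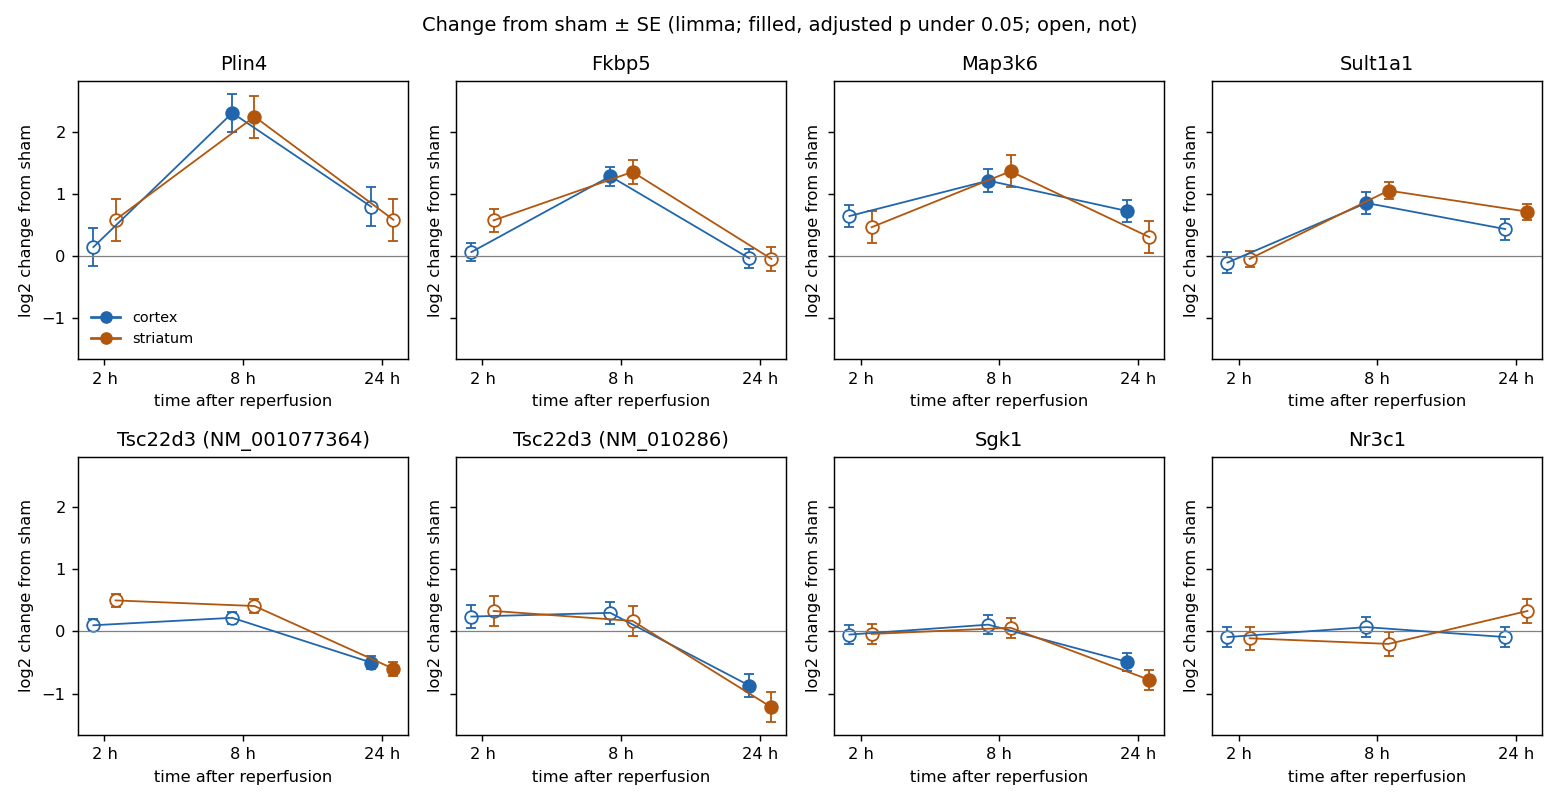
Log2 change from sham (± SE, limma) of each member probe at 2 h, 8 h and 24 h after reperfusion in cortex and striatum; filled symbols have an adjusted p under 0.05. Plin4, Fkbp5, Map3k6 and Sult1a1 peak at 8 h among the 3 times in both tissues, and Tsc22d3 and Sgk1 lie below sham at 24 h in both.

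Tsc22d3 encodes GILZ, a leucine zipper protein that restrains NF-kappaB and AP-1. Its level on the probe for NM_001077364 in cortex was 11.34, 11.36, 11.11 and 11.34 in sham, 11.61, 11.36, 11.53 and 11.54 at 8 h and then 11.05, 10.53, 10.70 and 10.87 at 24 h. In striatum it was 11.26, 11.41, 11.70 and 11.45 in sham, 11.97, 11.84, 11.92 and 12.09 at 2 h, 11.82, 11.69, 11.80 and 12.15 at 8 h and then 11.05, 10.74, 10.91 and 10.73 at 24 h. All 24-h arrays were below all sham arrays in both tissues, and all striatum 2-h arrays were above sham. At 24 h Tsc22d3 fell by 0.50 (SE 0.10) in cortex and by 0.60 (SE 0.11) in striatum on the log2 scale, with limma adjusted p = 0.00453 and 0.00351. The 8-h changes were 0.22 ± 0.10 in cortex (limma adjusted p = 0.182) and 0.41 ± 0.11 in striatum (0.0517), and the striatum 2-h change was 0.50 ± 0.11 (0.0727). None of these 3 passed the threshold, and the striatum 2-h and 8-h changes passed it in 1 alternative fit each (limma adjusted p = 0.0301 with the compared groups alone and 0.0164 with array weights).

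The other Tsc22d3 probe, for NM_010286, also fell at 24 h. In cortex it read 8.46, 8.61, 8.55 and 8.29 in sham and 8.20, 7.17, 7.42 and 7.63 at 24 h. In striatum it read 9.19, 8.36, 8.72 and 8.18 in sham and 7.86, 7.45, 7.08 and 7.18 at 24 h. Here too the groups did not overlap. The fall was by 0.87 (SE 0.18) in cortex and by 1.22 (SE 0.24) in striatum (limma adjusted p = 0.00554 and 0.00404). Earlier changes from sham on this probe were not called. In cortex they were 0.24 ± 0.18 at 2 h and 0.30 ± 0.18 at 8 h (limma adjusted p = 0.553 and 0.327). In striatum they were 0.33 ± 0.24 and 0.17 ± 0.24 (0.685 and 0.736), and both times overlapped sham. The difference between the probes shifted from sham to 24 h by -0.37 in cortex and -0.62 in striatum. Neither shift passed an exact permutation test (adjusted p = 0.2571 for both, over 6 comparisons), and the sham and 24-h arrays overlapped. With 4 arrays per group the smallest unadjusted p this test can give is 0.0286.

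Sgk1 encodes a kinase of ion channels and transporters named for its induction by serum and glucocorticoids. In cortex it read 12.57, 12.33, 12.56 and 12.52 in sham, 12.72, 12.73, 12.72 and 12.24 at 8 h and then 12.41, 11.49, 11.91 and 12.23 at 24 h. In striatum it read 13.03, 13.25, 13.14 and 13.24 in sham, 13.19, 13.27, 13.08 and 13.36 at 8 h and then 12.82, 11.93, 12.73 and 12.04 at 24 h. The 8-h arrays overlapped sham in both tissues, while at 24 h all striatum arrays and 3 of 4 cortex arrays lay below sham. The 8-h change was 0.11 ± 0.15 in cortex (limma adjusted p = 0.716) and 0.06 ± 0.16 in striatum (0.867). At 24 h Sgk1 fell by 0.78 (SE 0.16) in striatum (limma adjusted p = 0.00548). In cortex it fell by 0.49 (SE 0.15, limma adjusted p = 0.0398), a call that was lost without any 1 of the 4 sham arrays or without 24-h replicate 2 or 3 (adjusted p = 0.0509 to 0.0957). It was also lost without a detection filter, without a variance trend and with the compared groups alone (0.0611 to 0.093). With slide as a block the cortex value was -0.46 (adjusted p = 0.0524).

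Sgk1 was also the 1 member called different between the sham tissues. It was higher in striatum by 0.67 ± 0.17 (limma adjusted p = 0.00316), and the 4 arrays of each tissue did not overlap. Plin4, at 0.77 ± 0.35 in the same direction, was called with the compared groups alone (limma adjusted p = 0.0356), with quantile normalization within tissues (0.0455) and without sham striatum replicate 4 (0.0361). Tsc22d3 was also called with quantile normalization within tissues (0.30, limma adjusted p = 0.0294). Among the 10081 genes of that comparison 13.8% were called higher in striatum, and 1 of 7 members is near that share. Beside Sgk1, the oligodendrocyte markers summed to 54900 to 59700 in sham striatum and 36400 to 40700 in sham cortex. Of these markers 9 of 10 were detected, with Ermn undetected in both. All 9 tested were higher in striatum, and their part in the Sgk1 difference was not tested. Over all 8 groups, the mean Sgk1 level was highest in striatum at 8 h (13.23 ± 0.12 SD), followed by sham striatum (13.16 ± 0.10) and striatum at 2 h (13.13 ± 0.20), which overlapped one another. Cortex at 8 h, in sham and at 2 h followed (12.60, 12.50 and 12.44), then striatum at 24 h (12.38 ± 0.46) and cortex at 24 h (12.01 ± 0.41), and neighbours in this order overlapped except between striatum at 2 h and cortex at 8 h.

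Nr3c1, the receptor gene, was not called in any of the 14 comparisons. Its levels in cortex were 6.13, 5.79, 6.12 and 5.83 in sham, 6.28, 5.95, 6.15 and 5.75 at 8 h and then 5.77, 6.21, 5.76 and 5.79 at 24 h. In striatum they were 6.01, 6.36, 5.98 and 5.62 in sham, 6.03, 5.26, 6.16 and 5.70 at 8 h and then 6.40, 6.22, 6.28 and 6.36 at 24 h. The groups overlapped sham at every time in both tissues. The changes from sham ran from -0.20 ± 0.19 (striatum, 8 h) to 0.33 ± 0.19 (striatum, 24 h, limma adjusted p = 0.241). From 8 h to 24 h in striatum the level differed by 0.53 ± 0.19 without overlap, and this was not called (limma adjusted p = 0.068). It passed with array weights (0.61, adjusted p = 0.0273) and without 8-h replicate 1 or 3 (0.0462 and 0.0458). Nr3c1 read near background, with deposited signals of 65.8 to 149.8 units where array medians were 57.2 to 103.7. The lack of calls at such a level does not show that its messenger RNA was unchanged.

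Across the time course, no member was called at 2 h. By adjusted p, 1.15% of all genes were called in cortex at 2 h and 0.182% in striatum. In cortex 1 of 7 members had an unadjusted p under 0.05 (Map3k6, higher, 263rd of 9567 genes by p). In striatum 2 of 7 did (Tsc22d3 and Fkbp5, both higher, 43rd and 310th of 9866). The other Tsc22d3 probe did not (0.33 ± 0.24, limma unadjusted p = 0.182), and its 2-h arrays overlapped sham. The share of all genes with an unadjusted p under 0.05 is not given, so these 2 counts have no background beside them. Some alternative fits called 1 member: Map3k6 in cortex with array weights or the compared groups alone (limma adjusted p = 0.00223 and 0.0102), and Tsc22d3 in striatum with the compared groups alone (0.0301). Those fits also called more genes in all, 1075 and 515 in cortex in place of 110, and 89 in striatum in place of 18. From 2 h to 8 h, 3 of 7 rose in cortex (Plin4, Fkbp5 and Sult1a1, with 0.345% of all genes called higher) and 2 in striatum (Plin4 and Sult1a1, with 0.213%). Plin4 rose by 2.16 ± 0.31 in cortex and 1.66 ± 0.34 in striatum, and the striatum call was lost without 2-h replicate 2 or 4 or 8-h replicate 1, 2 or 4 (limma adjusted p = 0.0554 to 0.113), or with the authors' series values (0.0815). Sult1a1 alone then remained.

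At 24 h against sham, 1 member was higher and 2 were lower in each tissue. Map3k6 was the higher one in cortex and Sult1a1 in striatum, and Tsc22d3 and Sgk1 were lower in both. Of all genes, 6.93% were called higher and 7.19% lower in cortex, and 9.4% and 8.21% in striatum. From 8 h to 24 h, 4 of 7 fell in cortex (Fkbp5, Plin4, Sgk1 and Tsc22d3) and 5 in striatum (the same with Map3k6), against 3.45% and 7.4% of all genes called lower. Tsc22d3 fell by 0.72 and 1.01 in this step and Sgk1 by 0.59 and 0.84 in cortex and striatum, and Map3k6 fell by 1.06 in striatum (limma adjusted p = 0.0147). The fall of Map3k6 was not called with the authors' series values (0.0518) or with the compared groups alone (0.0791). The cortex fall of Sgk1 from 8 h was not called without 8-h replicate 1, 2 or 3 or 24-h replicate 3 (limma adjusted p = 0.0572 to 0.0745), or with the compared groups alone (0.144). The comparisons with sham and those between times share arrays, and so do not count as separate evidence.

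**Figure D3:**
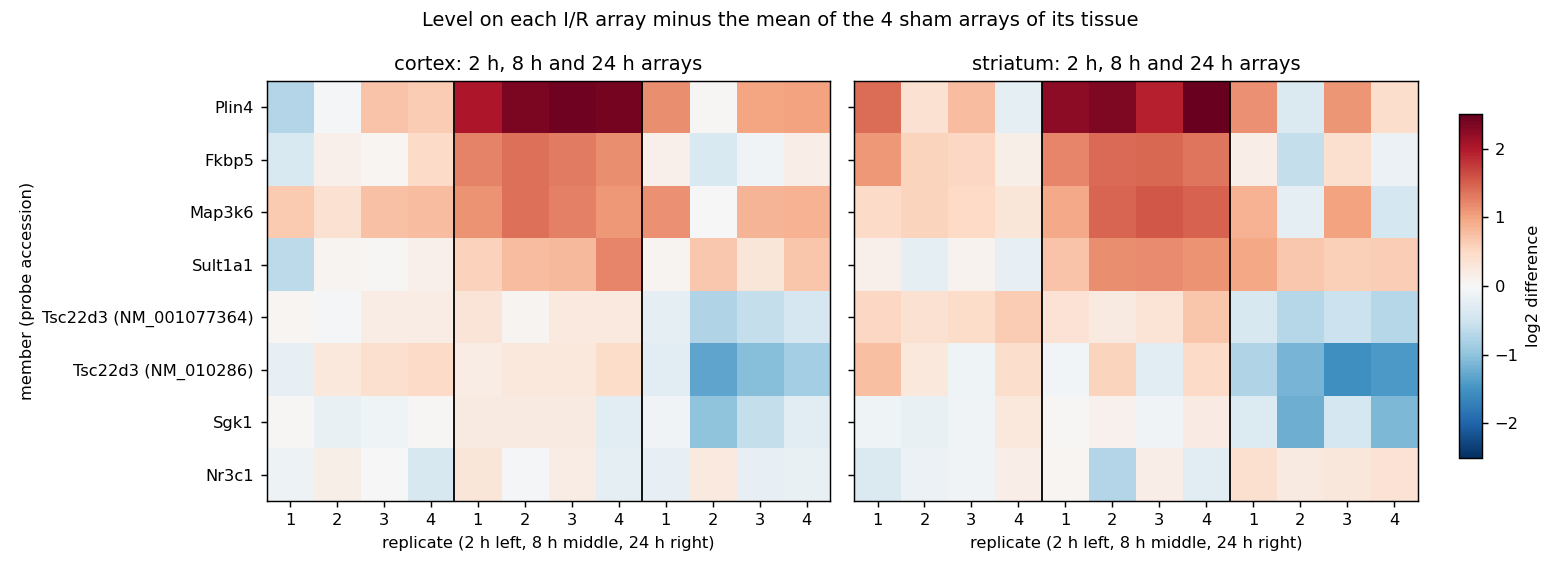
Level of each member probe on each of the 24 I/R arrays minus the mean of the 4 sham arrays of its tissue (colour, log2 difference, from -2.5 to 2.5), with replicates 1 to 4 side by side within each time. The top 4 rows are red on all 8-h arrays of both tissues. At 24 h replicate 2 of cortex is lower than the other cortex arrays, and replicate 2 of striatum lower than replicates 1 and 3. This holds for Plin4, Fkbp5, Map3k6, Sgk1 and the NM_001077364 probe of Tsc22d3.

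The 24-h arrays of a tissue differed from one another in several members at once. In cortex, replicate 2 differed from the sham mean by 0.03 for Plin4, -0.38 for Fkbp5, 0.00 for Map3k6 and -1.01 for Sgk1, the lowest value of its group for each. The other 3 cortex arrays ran from 0.99 to 1.16 for Plin4 and from 0.85 to 1.15 for Map3k6. Both Tsc22d3 probes were also lowest on cortex replicate 2 (-0.76 for NM_001077364 and -1.31 for NM_010286). Sult1a1 (0.67) and Nr3c1 (0.24) were not lowest there. In striatum, replicates 1 and 3 had Plin4 at 1.14 and 1.11 and Map3k6 at 0.86 and 1.01 above the sham mean. Replicates 2 and 4 had Plin4 at -0.36 and 0.43 and Map3k6 at -0.23 and -0.44. The NM_001077364 probe of Tsc22d3 was also lower on replicates 2 and 4 (-0.71 and -0.72) than on 1 and 3 (-0.40 and -0.54). In striatum Sult1a1 and the other Tsc22d3 probe were not divided in this way, with Sult1a1 at 0.60 to 0.96 on all 4.

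No member's response was called different between the tissues by the test of the difference itself. The labels do not say whether a cortex and a striatum array came from 1 mouse, and all comparisons of the tissues treat the arrays as independent. Arrays of the same time and number in both tissues correlated in their deviations from the group means at -0.31 to 0.53. With such arrays as a block, a fit added after the values were seen, no call of a member between the tissues changed. The striatal change minus the cortical change at 8 h was -0.06 ± 0.50 for Plin4, 0.08 ± 0.26 for Fkbp5, 0.15 ± 0.33 for Map3k6 and 0.20 ± 0.22 for Sult1a1 (limma adjusted p = 0.999 for each). For all members and the 3 times the differences ran from -0.42 ± 0.33 (Map3k6, 24 h) to 0.51 ± 0.26 (Fkbp5, 2 h). An unadjusted p under 0.05 was reached by 1 member at 2 h (Tsc22d3, 0.40 ± 0.15, limma adjusted p = 0.87) and by none at 8 h or 24 h. On the other Tsc22d3 probe the 2-h difference was 0.09 ± 0.32 (limma unadjusted p = 0.772). By adjusted p, 0%, 0.0198% and 1.78% of all genes were called at 2 h, 8 h and 24 h. The share of all genes with an unadjusted p under 0.05 is not given for these tests. The p-values of these tests do not show that the tissues responded alike.

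Within the 3 slides of each tissue that held both sham and I/R arrays, the 8-h changes kept their direction. They ran from 1.52 to 2.91 for Plin4 in cortex and from 1.83 to 2.75 in striatum. For Fkbp5 the ranges were 1.12 to 1.48 and 1.10 to 1.68, for Map3k6 1.07 to 1.24 and 1.04 to 1.45, and for Sult1a1 0.58 to 1.26 and 0.65 to 1.36. The 24-h change of Tsc22d3 ran from -0.58 to -0.30 in cortex and from -0.96 to -0.29 in striatum. That of Sgk1 ran from -1.08 to -0.04 and from -1.21 to -0.31. Only Map3k6 in cortex at 24 h, among the calls against sham, took both signs, from -0.13 to 1.21.

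Other known glucocorticoid targets were read from a list of 24 genes, 22 of them tested in cortex and 23 in striatum. At 2 h limma called none in either tissue. The median changes were 0.34 in cortex and 0.32 in striatum, where that of all genes was -0.01 in both. An unadjusted p under 0.05 was found for 13 in cortex and 9 in striatum, and the share of all genes is not given for these counts. At 8 h, 8 rose and none fell in cortex, and 7 rose and none fell in striatum. Of all genes, 3.69% and 1.73% were called higher there. The median change of the list at 8 h was 0.32 in cortex and 0.42 in striatum, where that of all genes was -0.01 and 0.01. Lcn2, a siderophore-binding acute-phase protein also stored in neutrophil granules, rose by 3.95 ± 0.48 in cortex and 2.99 ± 0.78 in striatum (limma adjusted p = 0.000446 and 0.041). The metal-binding metallothionein gene Mt2 rose by 1.5 ± 0.30 and 1.57 ± 0.36 (limma adjusted p = 0.00832 and 0.0239). Cdkn1a, which encodes the cell cycle inhibitor p21, rose by 1.47 ± 0.36 and 1.81 ± 0.39 (0.0214 and 0.0191). Sdc4, a heparan sulfate proteoglycan of the cell surface, rose by 0.85 ± 0.14 and 0.76 ± 0.14 (limma adjusted p = 0.00241 and 0.0101). The transcription factor gene Cebpb rose in cortex by 1.01 ± 0.29 (0.0412), and its striatum change of 1.00 ± 0.28 was not called (0.0557).

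At 24 h calls in the same list went both ways. In cortex 4 of 22 rose and 1 fell, where 6.93% of all genes were called higher and 7.19% lower. In striatum 3 of 23 rose and 4 fell, where the shares were 9.4% and 8.21%. The median changes were 0.11 and -0.01. Ddit4, an inhibitor of mTORC1 signalling, fell in both, by 0.52 (SE 0.09) in cortex and by 1.03 (SE 0.13) in striatum (limma adjusted p = 0.00148 and 0.000352). In striatum Nfkbia, the inhibitor of NF-kappaB, fell by 0.93 and Errfi1, a feedback inhibitor of EGF receptor signalling, fell by 0.84 (limma adjusted p = 0.004 and 0.00456). Lcn2 was higher by 4.15 ± 0.48 in cortex and 2.43 ± 0.78 in striatum (limma adjusted p = 0.000176 and 0.039). From 8 h to 24 h, 3 fell and none rose in cortex (3.45% and 3.26% of all genes), and 9 fell and 1 rose in striatum (7.4% and 6.25%). The largest striatal falls were those of Cdkn1a (by 1.32), Nfkbia (by 1.08) and Pdk4 (by 1.05), a kinase that inhibits pyruvate dehydrogenase.

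**Figure D4:**
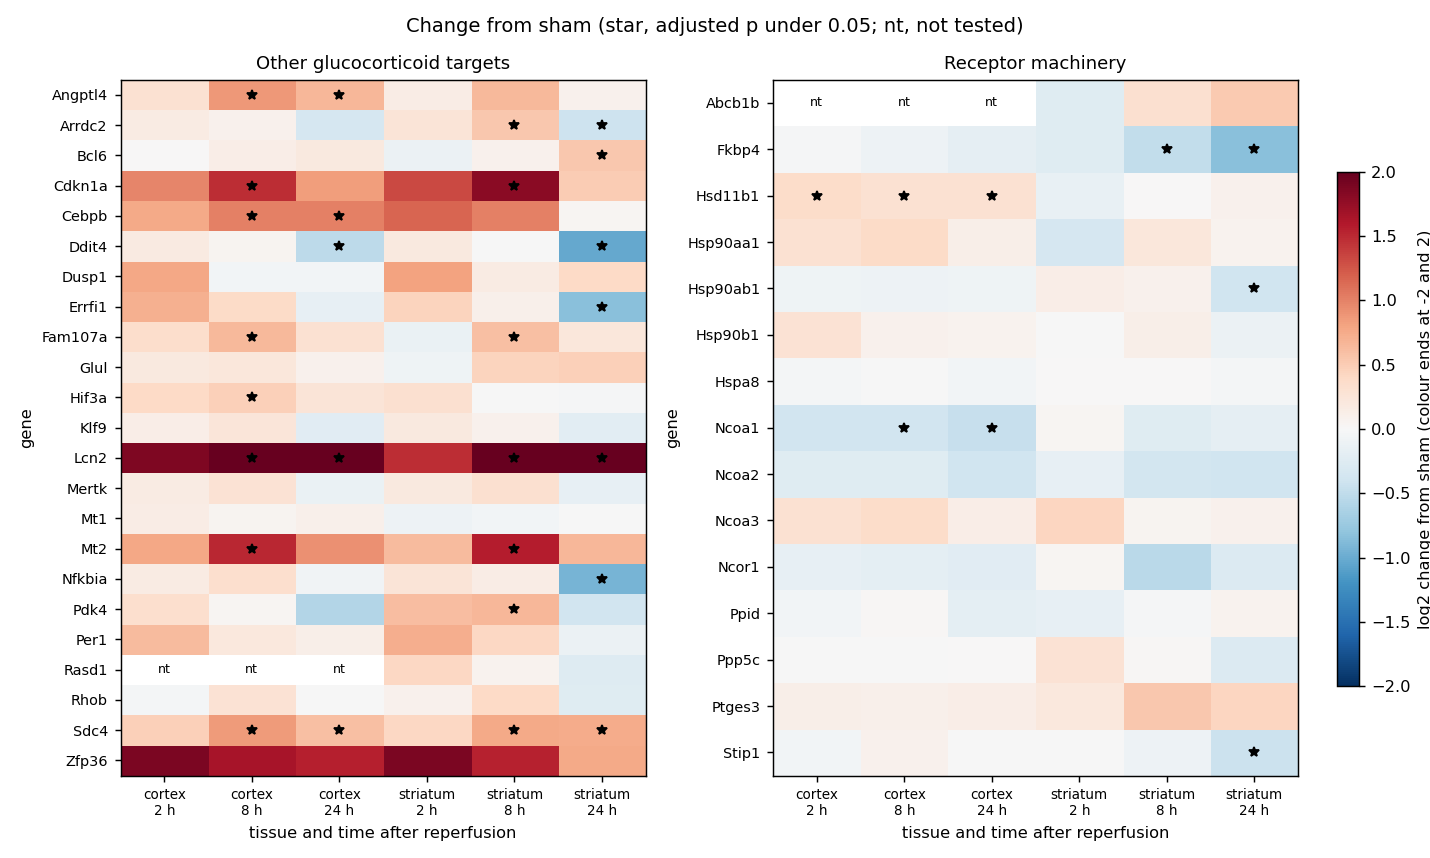
Log2 change from sham (colour, ending at -2 and 2) of the tested genes of 2 lists, glucocorticoid targets other than the members (left) and receptor machinery (right), in cortex and striatum at each time; stars mark an adjusted p under 0.05 and nt a gene not tested. In the left panel the stars at 8 h are all on red cells, 8 in cortex and 7 in striatum, and at 24 h they stand on both colours.

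The receptor machinery list holds chaperones, co-chaperones, coregulators and steroid-converting enzymes. Of 14 genes tested in cortex and 15 in striatum, 1 rose in cortex at 2 h, 1 rose and 1 fell in cortex at 8 h and again at 24 h, and in striatum 1 fell at 8 h and 3 fell at 24 h. Among all cortex genes the shares were 0.554% higher at 2 h, 3.69% higher and 3.38% lower at 8 h, and 6.93% and 7.19% at 24 h. In striatum 1.77% were lower at 8 h and 8.21% at 24 h. Hsd11b1, whose enzyme regenerates active glucocorticoid inside cells, was the cortical rise at all 3 times (by 0.36 ± 0.08, 0.30 ± 0.08 and 0.30 ± 0.08, limma adjusted p = 0.0421, 0.0341 and 0.0216). The coactivator gene Ncoa1 was the cortical fall, by 0.38 at 8 h and 0.46 at 24 h (limma adjusted p = 0.0372 and 0.0105). Fkbp4 encodes FKBP52, the co-chaperone that competes with FKBP51 for the receptor complex. In striatum Fkbp4 fell by 0.50 at 8 h and by 0.84 at 24 h (SE 0.09 in both, limma adjusted p = 0.00972 and 0.000271). Its 24-h response differed between the tissues, by -0.66 ± 0.13 in striatum relative to cortex (limma adjusted p = 0.013). Hsp90ab1 and Stip1, for Hsp90 beta and the co-chaperone HOP, fell in striatum at 24 h by 0.40 and 0.43 (limma adjusted p = 0.00808 and 0.00923).

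Markers of other cell types also moved, some of them already at 2 h. Of all genes at 8 h, 3.69% were called higher and 3.38% lower in cortex, and 1.73% and 1.77% in striatum. At 24 h the shares were 6.93% and 7.19% in cortex, and 9.4% and 8.21% in striatum. At 8 h, 4 of 8 astrocyte markers rose in cortex, and in striatum 1 rose and 1 fell. Their summed signal was 30700 to 33800 in cortex at 8 h and 25400 to 28100 in sham, and 33500 to 36100 and 29200 to 34200 in striatum, with all 8 detected. Of 8 tested endothelial markers, 4 fell in cortex and 3 in striatum at 8 h. At 2 h, 4 were already called lower in cortex and 1 in striatum, where 0.596% and 0.0608% of all genes were. The median changes of the endothelial markers were -0.69 and -0.56 at 2 h, and -0.68 and -0.47 at 8 h. Their summed signal was 2450 to 3370 at 8 h and 3610 to 3830 in sham cortex, and 3450 to 5710 and 4620 to 5260 in striatum, where Kdr and Cdh5 were undetected throughout sham and 8 h. Of 8 microglial markers, 4 fell in cortex and 3 in striatum at 8 h (summed signal 1850 to 2380 and 1670 to 2590, from 2360 to 2860 and 2190 to 2600 in sham). Of 6 tested striatal projection neuron markers, 4 fell in cortex at 24 h, with a median change of -1.18 and a summed signal of 2680 to 5870 (6090 to 7870 in sham). In striatum at 8 h limma called none of these 6, all with an unadjusted p under 0.05 and a median change of -1.14, and their summed signal was 2720 to 5190 (5290 to 11300 in sham, with Adora2a undetected at 8 h). No share of all genes is given beside that unadjusted count. At 24 h 3 of 9 tested oligodendrocyte markers fell in striatum, while in cortex 2 of them rose and 1 fell. Of 8 tested endothelial markers, 4 were called higher at 24 h in cortex and 1 in striatum, where 6.93% and 9.4% of all genes were. Of the neutrophil markers 2 of 3 tested rose in cortex and 1 of 4 in striatum. The summed neutrophil signal at 24 h ran from 341 to 12000 in cortex (297 to 303 in sham) and from 357 to 3680 in striatum (304 to 435). Of the 10 neutrophil markers, 7 were undetected on every sham cortex array and 5 on every sham striatum array, so the sham sums hold many background values. Mmp8 was undetected in all these groups, and Ngp and Camp were also undetected in striatum at 24 h. In striatum the lowest 24-h array was thus within the sham range. The part of these cell types in the members' changes was not tested.

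By Pearson correlation over the 32 arrays, with the tissue mean removed, the 3 genes most like each member among 9349 were named. The arrays share slides and time groups, so these values describe the arrays and carry no test. Plin4 and Fkbp5 were each other's most similar gene (r = 0.91), and both had Pnpla2, the triglyceride lipase of lipid droplets, second (0.84 and 0.88). Map3k6 was most like the scavenger receptor gene Scara5 (0.91) and Mt2 (0.90). Sgk1 was most like Plekhf1 (0.85), Synm (0.83) and Nfkbia (0.82), and Sult1a1 like Fen1 (0.81), Ankrd49 (0.80) and Pnpla7 (0.80). The 2 Tsc22d3 probes both had Ddit4 among their 3 (0.87 and 0.86), after Arrdc2 and Rab31 (both 0.88) for NM_001077364 and after Trp53inp1 (0.87) for NM_010286. Nr3c1 was most like Arih1, at 0.78.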

How the data were processed

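Per the file headers, the intensity values are un-normalized mean bead signals that the authors exported with BeadStudio 3.3.7. The detection values in the deposited tissue tables are fractions, 1 minus the detection p. In the deposited series values the ratio of each signal to the mean of the 4 sham arrays of its tissue was found, after division by 1 factor per array. The genome build is not given in the sources used here. The table of all probes was used, without 837 probes that had no value and 8 columns of 1 array that matches no sample. Replicates carry the number of that table. The numbers in the sample descriptions name the same group for 32 of 32 arrays and the same number for 0 of 32.

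Signals were corrected for background with limma 3.58.1 (R 4.3.3; normal-exponential model from the detection p, offset 16), quantile-normalized over 32 arrays and put on the log2 scale. Genes were tested where a probe was detected (p under 0.05) on each of the 4 arrays of 1 or more groups, with the probe of highest mean standing for a gene; both Tsc22d3 probes were also tested. Each tissue's 4 groups were fitted in 1 model (lmFit, eBayes with a variance trend, two-sided, threshold 0.05), and all 8 groups for comparisons of the tissues. Genes were named through RefSeq accessions (23876 probes), symbols (728) or older symbols (709), and 384 kept the file's name.

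The members, lists and tests were chosen with earlier results of these data known. Named from the lists are at most 4 called genes with the largest rise and 4 with the largest fall per comparison, and Hba-a1. The fit was tested on simulated data. Cortex and striatum arrays were treated as independent. Precision is limited by 4 arrays per group. Alternatives were other background, scaling, filter and variance settings, the series values, the deposited tissue tables, array weights, slide or replicate number as a block, the compared groups alone, and each array left out.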

Additional observations from a re-analysis of the deposited data

Results flagged for a closer look

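In 7 of the 64 sets of 4 arrays (8 probes in 8 groups), 1 array stood apart by Dixon's ratio of gap to range, where chance alone gives about 1 in 20. The low arrays were Plin4 in cortex at 8 h, replicate 1, at 9.42 (others 9.75 to 9.82), Plin4 in cortex at 24 h, replicate 2, at 7.42 (8.38 to 8.55), and Sgk1 in cortex at 8 h, replicate 4, at 12.24 (12.72 to 12.73). Further low arrays were Sult1a1 in cortex at 2 h, replicate 1, at 8.06 (8.74 to 8.83), Sult1a1 in striatum at 8 h, replicate 1, at 9.68 (10.08 to 10.14), and Tsc22d3 (NM_001077364) in sham cortex, replicate 3, at 11.11 (11.34 to 11.36). The high array was Nr3c1 in cortex at 24 h, replicate 2, at 6.21 (5.76 to 5.79), the array on which Plin4 was low.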

How the results depend on the processing

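Of 29 member results called by limma, 23 kept direction and call in every setting and with every array left out, and no called result reversed. Over all member values, 1320 of 1365 kept direction and side of the threshold under another setting, and 878 of 952 with 1 array left out. The number of members called moved by over 1.5 times, or from none, as follows. With array weights it was 1 in cortex at 2 h against sham and 4 in striatum at 8 h against 2 h. With the compared groups alone it was 1 at 2 h and 1 at 24 h in cortex, 1 at 2 h in striatum and 2 between the sham tissues. With quantile normalization within tissues, which moved the median of all genes to 0.13, it was 3 between the sham tissues. With the series values it was 1 in striatum at 8 h against 2 h; these are relative to each tissue's sham mean, so the sham tissues were not compared in them. Leaving out 1 array gave 1 to 3 members in cortex at 24 h against sham, 1 to 3 in striatum at 8 h against 2 h and 1 to 2 between the sham tissues. With the series values Map3k6 in striatum lost its calls at 8 h against sham (1.07, adjusted p = 0.0754) and at 24 h against 8 h (-0.84, 0.0518). The latter was also lost with the compared groups alone (0.0791). Sgk1 in cortex at 24 h against sham lost its call without a detection filter (adjusted p = 0.0655), without a variance trend (0.0611) and with the compared groups alone (0.093). Array weights also added the calls of Sult1a1 in cortex at 24 h (adjusted p = 0.0425), Map3k6 in cortex at 8 h against 2 h (0.0217), Tsc22d3 in striatum at 8 h (0.0164) and, in striatum at 24 h against 8 h, Nr3c1 (0.0273) and Sult1a1 (-0.39, 0.0297). The compared groups alone also lost Sgk1 in cortex at 24 h against 8 h (0.144) and added Map3k6 at 8 h against 2 h in cortex (0.0346) and striatum (0.0169). Same-numbered arrays of 2 groups of a tissue correlated in their deviations at -0.26 to 0.37, above 0.1 in all 4 pairs only for cortex at 2 h and 24 h (0.13 to 0.31), groups not compared here. In the I/R groups of each tissue 1 number is also 1 slide. The replicate number as a block added the call of Sult1a1 in cortex at 24 h (0.43, adjusted p = 0.0274), for 4 members in place of 3, and changed no other call. The fall of Tsc22d3 in cortex at 24 h was by 0.76 with the series values, in place of 0.50, and the rise of Map3k6 in cortex at 24 h was 0.37, in place of 0.72, in the deposited cortex gene table. Blocks of same-numbered cortex and striatum arrays, added after the values were seen, changed no member's call between tissues. By the numbers of the sample descriptions those arrays correlated at 0.16 to 0.53 at 24 h and at -0.17 to 0.15 otherwise. The cause of these changes was not tested. The number of all genes called, and so the share beside each member count, moved both ways. In cortex at 8 h it was 676, with 1809 for array weights, 971 for the compared groups alone, 449 without a detection filter, 352 with median scaling and 280 with the series values. In striatum at 8 h it was 346, with 723 for array weights and 7 with the series values. Precision is limited by 4 arrays per group.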
